A study of Arabidopsis thaliana with 6 samples.

Results

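Root hairs are tubular outgrowths of single epidermal cells that lengthen at their tip, and the wall laid down there differs in its proteins and polysaccharides from the wall of neighbouring cells. The 9 genes described here encode proteins of that wall, enzymes that help to build it, and a receptor-like kinase of hair growth. PRP1 and PRP3 encode proline-rich structural proteins, RHS13 encodes a protein of the Ole e 1 and extensin family, and LRX1 and LRX2 encode extracellular proteins that join leucine-rich repeats to an extensin-like tail and tie the wall to the cell. PERK13 is a receptor-like kinase with a proline-rich outer part, known to restrain hair growth. RHS8, also named XUT1, is a glycosyltransferase that adds galacturonic acid to the hemicellulose xyloglucan, and CSLD2 and CSLD3 are cellulose synthase-like enzymes, without which hairs burst or rupture as they grow. The genes were taken by their locus identifiers, and all 9 were found among the 22746 probe sets tested, each with 1 probe set whose annotation names 1 gene.

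They were compared between 2 pieces of the root apex of wild-type (WT) Arabidopsis thaliana Col-0 seedlings, aged 8 days grown on solid medium in continuous light and fixed in RNAlater. Zone I was the terminal 0.5 mm, with the cap and the dividing cells. Zone II was a 1.5 mm section that took in the elongating cells and the hairs. There were 3 arrays for each zone, 6 in all. The labels name no separate seedling batches behind the arrays, so the p-values below rest on array-to-array spread alone, and that spread may be technical. Signals are on a linear scale in arbitrary units, scaled by the authors to a common trimmed mean on every array. On each array 35.2% to 39.6% of the signals were below 64, and differences of genes whose mean signal in a zone was that dim are given both as deposited and after 64 was added to every signal.

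All 9 genes had higher signals in zone II, and all 9 passed the test at an adjusted p under 0.05 (limma, Benjamini-Hochberg over all probe sets). Over the whole array 18.1% of probe sets were called higher in zone II and 37.9% in either direction. With 64 added all 9 were called as well, where 19.1% of probe sets were called higher in zone II. On all 9 genes the lowest zone II array lay above the highest zone I array, which held for 23.5% of all probe sets, while 26.4% separated the opposite way. The 9 genes were chosen as genes of the root hair wall, and several of them, RHS8 and RHS13 included, have been named for hair cell expression. The shared direction of the 9 genes is therefore not independent of that choice. The median difference of the 9 genes was 5.12 on the log2 scale (zone II minus zone I), or 4.38 with 64 added, where the median of all probe sets was -0.04 and -0.01. The sizes were far apart. PRP3 stood at 9.35 and CSLD3 at 0.56. Both zones hold many cell types, so a higher signal from more hair cells in zone II and a higher signal per cell cannot be told apart.

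**Figure D1:**
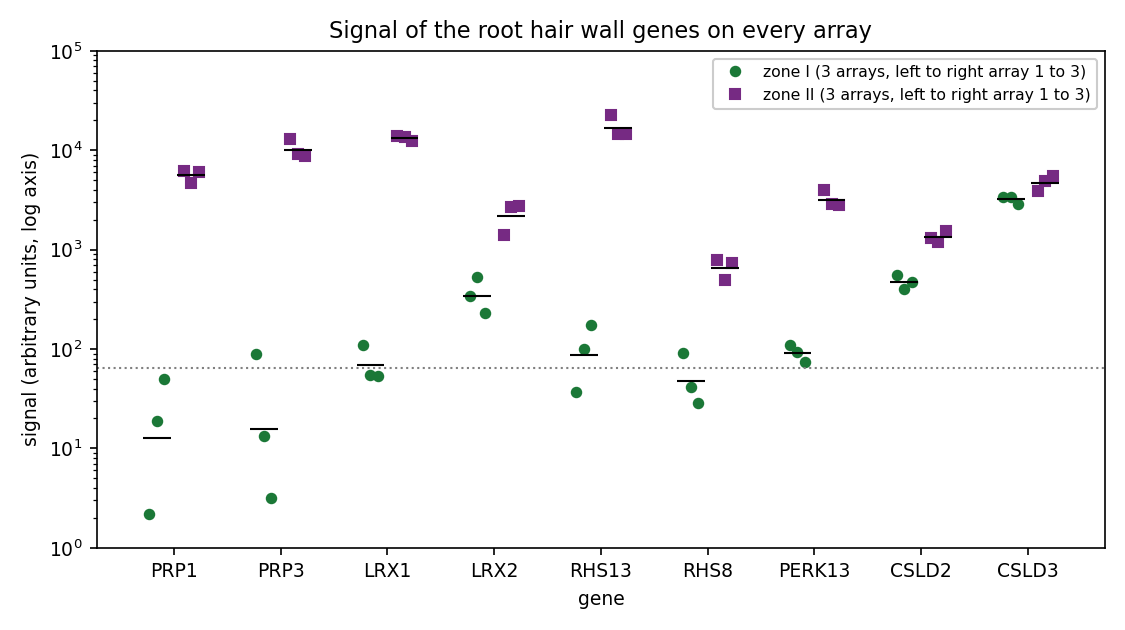
Signal of each gene on every array (arbitrary units, log axis). Circles are the 3 zone I arrays and squares the 3 zone II arrays, each set drawn from array 1 at the left to array 3 at the right, black bars are geometric means, and the dotted line marks a signal of 64. The zones do not overlap for any gene, and CSLD3 has the smallest gap, from 3407 on its highest zone I array to 3912 on its lowest zone II array.

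The structural wall proteins had the largest differences together with LRX1. PRP3 (AT3G62680), a proline-rich protein deposited in the hair wall, had signals of 88.5, 13.3 and 3.19 on zone I arrays 1, 2 and 3, and of 13076, 9181 and 8650 on the zone II arrays. Zone I was low and spread widely, with arrays 2 and 3 under 64, while the zone II arrays lay close together. The log2 difference was 9.35 ± 0.89 (SE, n = 3 per zone, limma adjusted p = 1.71e-05), and 12 of all probe sets had a larger one. With 64 added it was 6.78, a 110-fold ratio. Since its zone I arrays were so far apart, the plain value moved to 10.60 without zone I array 1 and to 8.20 without zone I array 3.

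PRP1 (AT1G54970), the other proline-rich protein, read 2.19, 18.7 and 49.7 in zone I and 6187, 4663 and 5965 in zone II. Its zone I signals ran in the opposite order to those of PRP3, with array 1 lowest and array 3 highest, and all 3 lay under 64. The difference was 8.78 ± 0.86 (SE, n = 3 per zone, limma adjusted p = 2.08e-05), or 6.04 with 64 added, a ratio of 65.9. Without zone I array 1 the plain value was 7.51, and without zone I array 3 it was 9.76. RHS13 (AT4G02270) had the brightest single zone II array of its own 3 on array 1, with 22380 against 14551 and 14569 on arrays 2 and 3. Its zone I signals were 36.6, 100.0 and 175.0. The difference was 7.61 ± 0.45 (SE, n = 3 per zone, limma adjusted p = 1.85e-06), or 6.74 with 64 added, and 6.99 without zone I array 1.

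Of the leucine-rich repeat extensins, LRX1 (AT1G12040) had zone II arrays close together. Its signals were 110.0, 54.2 and 53.8 in zone I and 13828, 13704 and 12361 in zone II, with an SD on the log2 scale of 0.59 among the zone I arrays and 0.09 among the zone II arrays. The difference was 7.60 ± 0.28 (SE, n = 3 per zone, limma adjusted p = 1.64e-07), or 6.63 with 64 added. LRX2 (AT1G62440), which acts alongside LRX1 in the hair wall, was well above 64 in both zones. It read 340.8, 525.0 and 229.8 in zone I and 1387, 2663 and 2762 in zone II, where array 1 stood below the other arrays. The difference was 2.65 ± 0.34 (SE, n = 3 per zone, limma adjusted p = 0.000121), a 6.28-fold ratio.

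PERK13 (AT1G70460), the receptor-like kinase, had signals of 110.6, 93.3 and 74.6 in zone I and of 3987, 2849 and 2831 in zone II. The arrays of each zone lay close together. Its difference was 5.12 ± 0.25 (SE, n = 3 per zone, limma adjusted p = 9.29e-07), a 34.7-fold ratio, or 4.38 with 64 added.

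Among the enzymes of wall polysaccharide synthesis, RHS8 (AT1G63450) read 91.9, 41.8 and 28.9 in zone I and 781.3, 498.3 and 735.4 in zone II, a difference of 3.78 ± 0.47 (SE, n = 3 per zone, limma adjusted p = 9.59e-05), or 2.65 with 64 added. CSLD2 (AT5G16910) was measured clearly in both pieces, at 550.8, 396.8 and 470.6 in zone I and 1321, 1205 and 1534 in zone II. Its difference was 1.52 ± 0.21 (SE, n = 3 per zone, limma adjusted p = 0.000217), a 2.87-fold ratio. CSLD3 (AT3G03050), the gene of the kojak mutant, in which hairs burst at the tip, was already bright in the root tip piece. Its signals were 3407, 3345 and 2877 in zone I and 3912, 4879 and 5506 in zone II. The difference was 0.56 ± 0.18 (SE, n = 3 per zone, limma adjusted p = 0.0267), a 1.48-fold ratio with a 95% interval of 0.17 to 0.95 on the log2 scale, and 35.1% of all probe sets had a larger one.

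The call on CSLD3 was the least firm of the 9. It was lost without zone I array 2 (0.59, adjusted p = 0.0602) or zone I array 3 (0.48, adjusted p = 0.108), and without zone II array 2 (0.54, adjusted p = 0.0837) or zone II array 3 (0.45, adjusted p = 0.0892), all by limma. It was also lost with equal medians (0.49, adjusted p = 0.0713) and without the intensity trend (adjusted p = 0.150). The direction was the same in all of these, and the other 8 genes kept their calls in every alternative run.

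**Figure D2:**
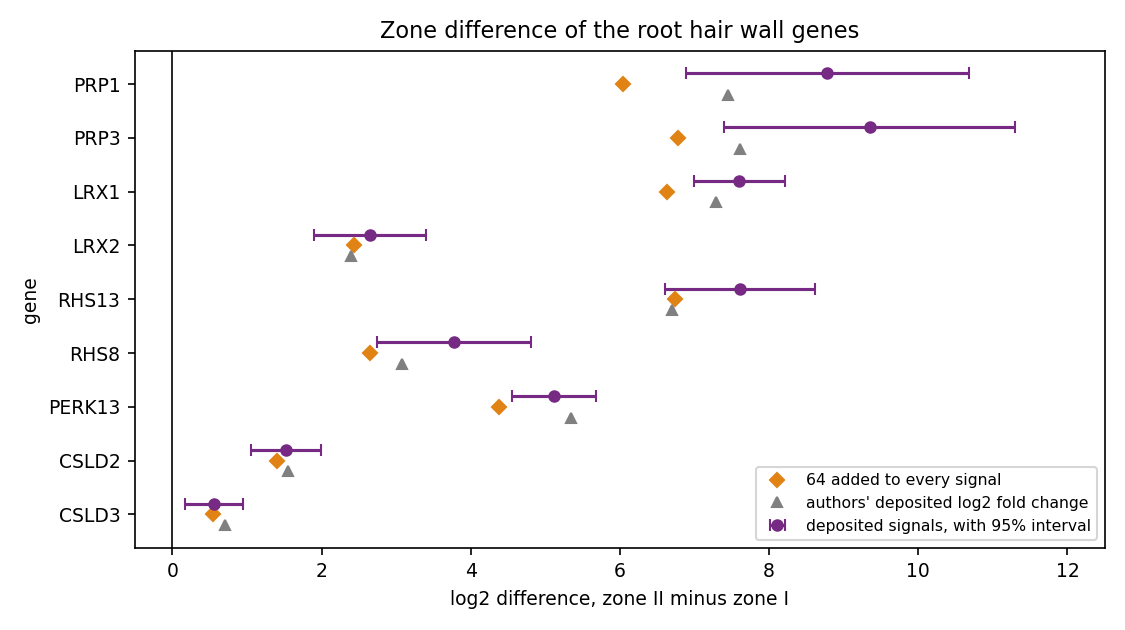
Log2 difference of zone II minus zone I for each gene. Circles with bars are the estimates from the deposited signals with 95% intervals (3 arrays per zone), diamonds the estimates after 64 was added, and triangles the authors' own log2 fold change. All values lie above 0, and adding 64 lowers PRP1 from 8.78 to 6.04 while CSLD3 moves from 0.56 to 0.55.

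In the authors' deposited table all 9 genes also had a positive log2 fold change with an adjusted p under 0.05, where 20.0% of all probe sets did. The values in the authors' deposited table ran from 0.70 for CSLD3 (adjusted p = 0.0155) to 7.61 for PRP3 (adjusted p = 1.23e-05). The authors' deposited table gave PRP1 7.45, LRX1 7.29, RHS13 6.70, PERK13 5.35, RHS8 3.08, LRX2 2.39 and CSLD2 1.55. Neither the test behind these values nor their direction is given in the sources used here. The direction was read as zone II over zone I, since across all probe sets they correlated with that difference at r = 0.87.

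**Figure D3:**
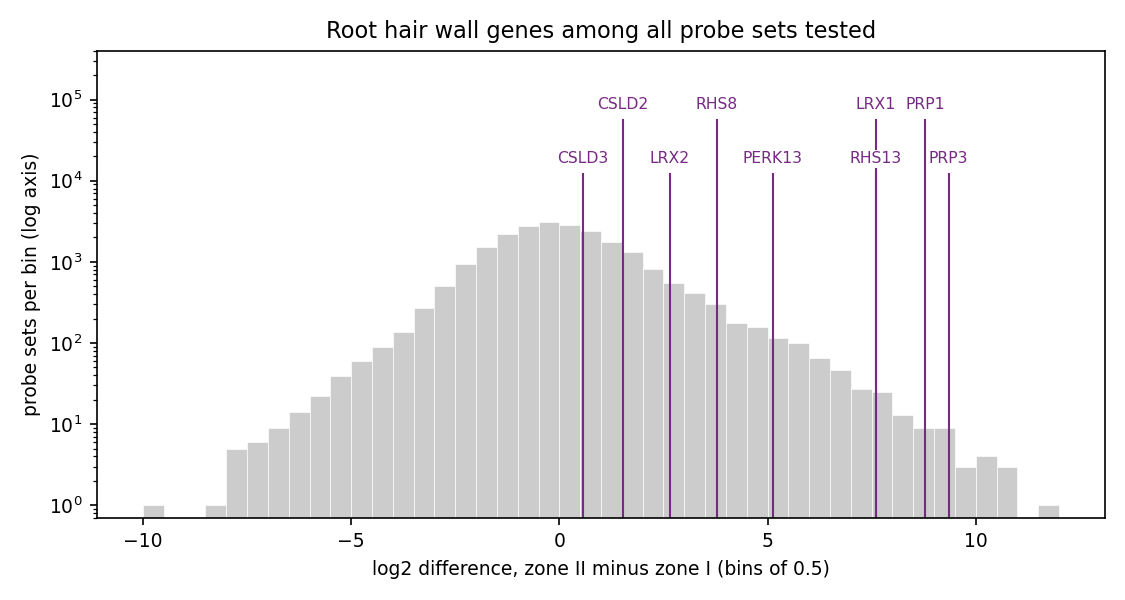
Number of probe sets in bins of 0.5 of the log2 difference, zone II minus zone I (grey bars, log axis), with vertical lines at the values of the 9 genes. CSLD3 at 0.56 lies within the bulk of all probe sets, and PRP3 at 9.35 has 12 probe sets beyond it.

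Within 3 pairs of related genes, the sizes were set against each other by the log2 ratio of the pair on each array. A single ratio still holds the unequal sensitivity of its probe sets, so the shift of the ratio between zones is what was compared. An exact permutation test over the 6 arrays cannot give a p below 0.10, and the values were adjusted over the 3 pairs. LRX1 over LRX2 was -1.63, -3.28 and -2.09 on the zone I arrays and 3.32, 2.36 and 2.16 on the zone II arrays. The zones did not overlap, and the ratio shifted by 4.95 between them (two-sided exact permutation p = 0.1, adjusted p = 0.15), or by 4.19 with 64 added. The 95% interval of the zone difference was 6.99 to 8.21 for LRX1 and 1.90 to 3.40 for LRX2. CSLD2 over CSLD3 was -2.63, -3.08 and -2.61 in zone I and -1.57, -2.02 and -1.84 in zone II, again without overlap, a shift of 0.96 (two-sided exact permutation p = 0.1, adjusted p = 0.15), or 0.85 with 64 added. PRP1 over PRP3 spanned -5.34 to 3.96 among the zone I arrays and -1.08 to -0.54 among those of zone II. The zones overlapped, and the shift of -0.57 did not exceed the spread (two-sided exact permutation p = 0.7, adjusted p = 0.7). With 64 added the zone I ratios spanned -1.20 to 0.76, and the shift was -0.74 (two-sided exact permutation p = 0.4, adjusted p = 0.4). The plain shift turned to 1.56 without zone I array 3 and was -3.09 without zone I array 1.

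**Figure D4:**
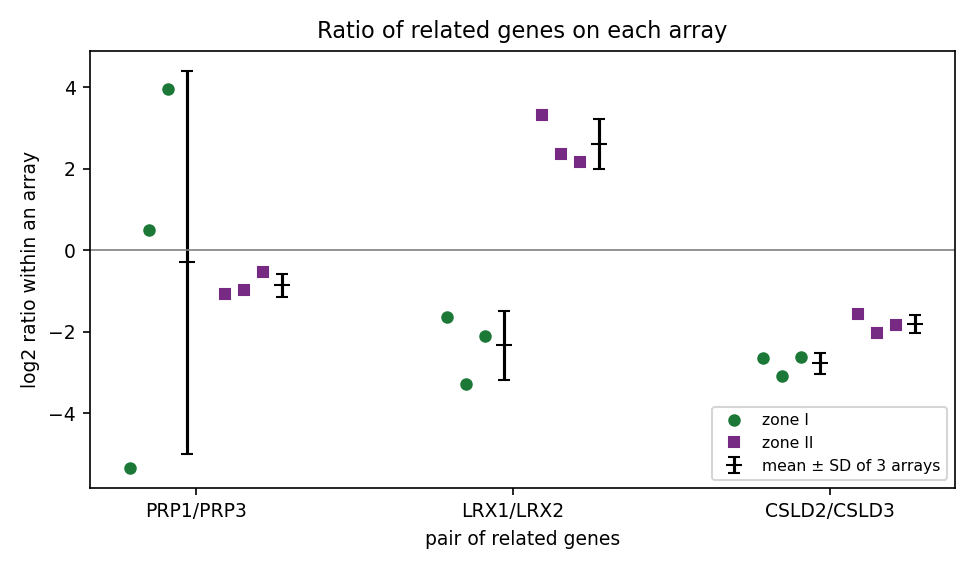
Log2 ratio of the first over the second gene of each pair on every array. Circles are zone I, squares zone II, and black bars the mean ± SD of 3 arrays. LRX1/LRX2 and CSLD2/CSLD3 separate by zone, while the zone I arrays of PRP1/PRP3 spread from -5.34 to 3.96.

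The labels of the zones were set against markers of the cell types they should hold. Of 9 root hair markers 8 were called higher in zone II, and RHD4, a phosphatase of hair growth, was not (0.03, adjusted p = 0.951). The bHLH factor RSL4, which drives hair growth, lay at 3.32 (2.66 with 64 added), and the expansin EXPA18 at 10.49 (6.76 with 64 added). All 4 measured markers of dividing cells and 3 of 4 of the root cap were called higher in zone I, and the fourth, BRN2, lay at -3.01 (adjusted p = 0.0714), or -1.27 with 64 added, where it passed (adjusted p = 0.0301). The 5 markers of the endodermis barrier and the 6 of xylem were all called higher in zone II as well, with medians of 9.95 and 5.42, or 6.14 and 3.32 with 64 added. Their summed signals were 206 to 232 and 299 to 1185 in zone I, and 31882 to 51790 and 9750 to 14424 in zone II. Of the regulators of non-hair epidermal cells, WER was called higher in zone I (-5.29) and GL2 was not called (-0.84, adjusted p = 0.0840). No marker was listed at 0 in either zone, and the part of these other tissues in the differences above was not tested.

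Among the zone II arrays, 6 of the 9 genes were highest on array 1, namely PRP1, PRP3, LRX1, RHS13, RHS8 and PERK13. The other 3, LRX2, CSLD2 and CSLD3, were highest on array 3. On the same array 1, 7 of the 9 root hair markers were highest, with a summed signal of 56685 against 39538 and 39681. The summed signal of the dividing-cell markers was also highest there, 887 against 145 and 139. Among the zone I arrays, 6 of the 9 genes and 7 of the 9 root hair markers were highest on array 1, where the root cap markers summed to 337 against 1130 and 1151. The part of these array differences in the results was not tested. With the first array of both zones left out, all 9 genes were called higher in zone II and their median difference was 5.09.

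The nearest relatives and partners of the 9 genes were described through 9 lists, which held 80 measured genes in all. In zone II 37 of these were called higher, against 2 in zone I, with a median of 1.04 (0.54 with 64 added), against 18.1% and 19.8% of all probe sets. The 37 include all 15 genes with a root hair specific name, a list named for hair cell expression, and all 6 LRX partners. In every other list some measured genes were not called. The lists went different ways, and genes named below beyond the 1 or 2 per list that a rule picked were named after their values were seen.

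Close family members of the proline-rich proteins did not share the pattern of PRP1 and PRP3. PRP4 lay at -0.48 ± 0.60 (SE, limma adjusted p = 0.591) and PRP2 at 0.36 (adjusted p = 0.734), or -0.22 and 0.17 with 64 added, and both had mean signals between 44.4 and 81.1 in the zones. Among 9 other leucine-rich repeat extensins 3 were called higher in zone II. LRX3, known from vegetative tissues, had signals from 78.7 to 168.7 in zone I and of 1285, 2079 and 1520 in zone II (3.66 ± 0.33, SE, limma adjusted p = 1.32e-05). The other called members were AT1G49490 at 3.29 (2.54 with 64 added) and AT3G24480 at 1.67, both annotated as leucine-rich repeat and extensin family proteins. The list median was 1.57, or 0.41 with 64 added.

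Of 14 other PERK kinases 5 were called higher in zone II. PERK12 had the largest difference, with signals of 7.71, 4.62 and 4.07 in zone I and 329.8, 202.4 and 199.5 in zone II (5.50 ± 0.76, SE, limma adjusted p = 0.000189), or 2.12 with 64 added. PERK4 lay at 3.93 (1.22 with 64 added), PERK14 at 1.91, PERK1 at 0.70 and PERK8 at 0.66. The call on PERK1 was lost without zone I array 3 (0.56, adjusted p = 0.0745), without zone II array 2 (0.58, adjusted p = 0.0725) and without the intensity trend (adjusted p = 0.112). That on PERK8 was lost without any 1 of zone I arrays 1, 2 and 3 and zone II arrays 2 and 3 (0.58 to 0.72), with equal medians and without the trend. None of the 4 other cellulose synthase-like D genes was called. CSLD5, known for its part in the cell plate of dividing cells, read 105.9, 153.2 and 190.2 in zone I and 77.4, 56.2 and 33.3 in zone II (-1.47 ± 0.55, SE, limma adjusted p = 0.0581). It passed with 64 added (-0.83, adjusted p = 0.0320), without zone II array 1 (-1.75, adjusted p = 0.0399) and in 5 further alternatives.

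Besides RHS8, 1 of 13 genes of xyloglucan synthesis was called higher in zone II and 1 lower there (median -0.22). Of all probe sets 18.1% were called higher in zone II and 19.8% in zone I, so most probe sets were not called either. CSLC12, of the family that makes the glucan backbone, read 61.1, 66.8 and 53.6 in zone I and 627.2, 589.7 and 1223 in zone II (3.67 ± 0.37, SE, limma adjusted p = 2.66e-05), or 2.75 with 64 added. XXT2, a xylosyltransferase that adds the side chains, lay at -0.90 ± 0.27 (SE, limma adjusted p = 0.0231). Its call was lost without zone I array 2 (-0.92) or 3 (-0.80), without zone II array 1 (-0.59) or 2 (-0.94), without the first array of both zones (-0.67) and without the intensity trend.

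Enzymes that hydroxylate extensins or add sugars to them were measured for 8 of 12 genes, and 4 of these were called higher in zone II (median 0.64). The largest difference among the 4 called was that of AT3G01720, listed as SGT1 but annotated as an unknown protein, at 1.51 ± 0.18 (SE, limma adjusted p = 6.35e-05). AT5G13500, listed as HPAT3 and also of unknown function in the annotation, lay at 1.40. The exostosin family gene AT3G57630, listed as EXAD, lay at 1.18, and XEG113, an arabinosyltransferase of extensin, at 0.55. RRA2, another arabinosyltransferase of extensin, lay the other way at -3.02 ± 1.14 (SE, limma adjusted p = 0.0585) and passed with 64 added (-0.73, adjusted p = 0.0410). XEG113 had an adjusted p of 0.0494 and lost its call in 9 alternatives, among them the replicate block (adjusted p = 0.0536) and without any 1 of zone I arrays 1, 2 and 3 and zone II arrays 2 and 3 (0.38 to 0.62). Without the intensity trend AT5G13500 also lost its call (adjusted p = 0.0516).

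All 6 partners of the LRX proteins were called higher in zone II, with a median of 2.00 (1.94 with 64 added). RALF peptides are secreted ligands that bind LRX proteins and the receptor kinase FERONIA (FER). RALF1 read 33.6, 4.13 and 6.38 in zone I and 5386, 4884 and 4218 in zone II (8.97 ± 0.64, SE, limma adjusted p = 4.50e-06), or 5.97 with 64 added. Its plain value was 9.87 without zone I array 1 and 8.36 without zone I array 2. RALF22 was bright in both zones, at 1898, 1195 and 1093 in zone I and 12338, 10433 and 10248 in zone II, a difference of 3.02. FER itself had signals of 1425, 1350 and 1072 in zone I and 5578, 4126 and 4847 in zone II, a difference of 1.92. LLG1, a membrane-anchored partner of FER, lay at 2.08, RALF33 at 1.89 and RALF23 at 1.09.

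Genes annotated with the Ole e 1 domain, the family of RHS13, were divided, with 3 of 9 called higher in zone II and 1 lower there (median 0.34). MOP10, also named PRPL1, had signals of 83.1, 10.8 and 62.6 in zone I and 2339, 2066 and 2454 in zone II (5.89 ± 0.62, SE, limma adjusted p = 3.27e-05), or 4.39 with 64 added and 4.98 without zone I array 2. In the opposite direction, AT5G10130 fell from 2635, 4131 and 4302 in zone I to 4.18, 23.1 and 55.0 in zone II (-7.69 ± 0.74, SE, limma adjusted p = 1.82e-05), or -5.36 with 64 added. Its plain value was -6.66 without zone II array 1 and -8.52 without zone II array 3. AT2G47540 lay at 3.88 (3.26 without zone I array 3) and AT5G54855 at 0.94, and the second lost its call without the intensity trend (adjusted p = 0.0685). The 15 other genes with a root hair specific (RHS) name were all called higher in zone II, from 2.60 to 10.38, with a median of 6.56 (3.49 with 64 added). That list was named in earlier work for hair cell expression, as were several of the 9 genes, RHS8 and RHS13 included. Those of the 9 genes with such a name were left out of the list. The direction of the list is therefore not independent of the root hair markers, with which it shares RHS18 and RHS19. RHS19, a peroxidase of the hair, was the largest at 10.38 ± 0.94 (SE, limma adjusted p = 1.34e-05), or 7.49 with 64 added. Its zone I signals of 94.0, 3.83 and 4.92 were highest on array 1, and without that array the difference was 11.86, while it was 9.55 without zone I array 2 and 9.74 without zone I array 3.

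**Figure D5:**
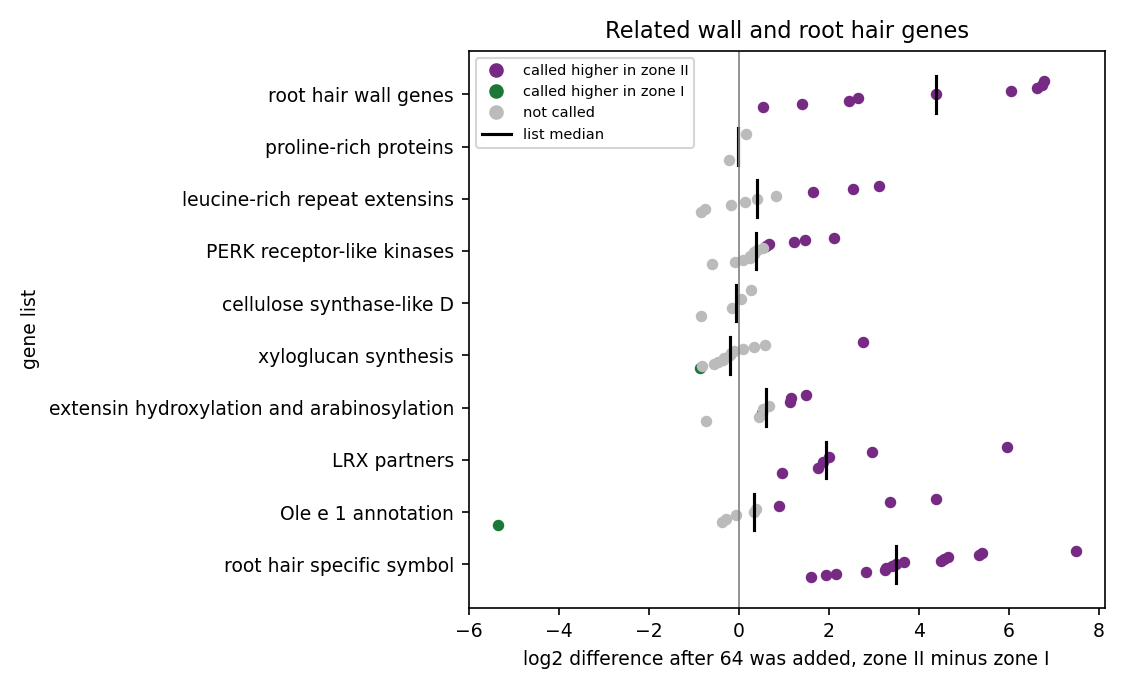
Log2 difference after 64 was added, zone II minus zone I, for the 9 root hair wall genes and the 9 lists of related genes. Each point is a gene, coloured by its call without the addition, and black bars are list medians. The RHS genes and LRX partners lie wholly to the right of 0, while AT5G10130 stands at -5.36 in the Ole e 1 list.

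The probe sets whose profile over the 6 arrays was most like the mean standardised profile of the 9 genes were sought among 12401 that named 1 gene and were above the median signal in their brighter zone. The arrays fall into 2 zone groups, so Pearson's r mostly reflects the gap between the zones, and 12.3% of the candidates had an r over 0.95. The 5 highest were the protein phosphatase gene TOPP6 (r = 0.9988), the aspartyl protease family gene AT5G22850, the PB1 domain gene AT4G05150, NHL1 and ROP2 (r = 0.9982), a small GTPase known from hair outgrowth. ROP2 had signals of 474.4, 415.5 and 415.3 in zone I and 1243, 1353 and 1419 in zone II, a difference of 1.62 ± 0.20 (SE, limma adjusted p = 7.98e-05). TOPP6 was dim in zone I, at 22.0, 21.4 and 13.5, and read 270.5, 333.8 and 374.6 in zone II.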

How the data were processed

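The authors deposited signal intensity values for 22810 probe sets, made with MAS5 and Affymetrix Expression Console per the submitters' processing notes. No source used here gives the settings, versions, array design or genome build, and no detection calls were used. The authors also deposited their own log2 fold changes and p-values for the zones, with adjusted p-values that equalled a Benjamini-Hochberg adjustment of them to within 1.1e-07.

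From the deposited intensities, log2 was taken with no offset and 64 control probe sets were left out. Zone II was compared with zone I over 22746 probe sets in limma 3.58.1 (R 4.3.3, eBayes with an intensity trend, two-sided, no block), and an adjusted p under 0.05 was a call. Symbols came from the TAIR10.1 gene table, which named 22091 probe sets. Exact permutation tests and figures used Python 3.11.15 and matplotlib 3.10.9. The number of arrays limits the precision.

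The genes and lists were chosen with earlier results of these data known. By rule the text names all 9 genes, from each related list the called gene with the largest difference and the furthest called in the other direction (or the largest difference where none was called), and the 5 most alike profiles. Alternatives were a replicate block, 16 or 64 added, equal array medians, quantile normalization, leaving out probe sets whose mean signal was under percentile 40, no trend, each array left out, the first array of both zones left out, and the authors' values.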

Additional observations from a re-analysis of the deposited data

How the results depend on the processing

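In all 15 alternatives run, each of the 9 genes lay higher in zone II, and 8 of them kept their call, while CSLD3 lost its call in 6 of 15. The median difference of the 9 genes moved from 5.12 to 4.38 with 64 added. It lay between 4.95 and 5.25 when single arrays were left out. Of the related genes, 2 were called higher in zone I, against 4 with 16 added, 5 with 64 added and 4 with quantile normalization, and 1 to 3 when single arrays were left out (1 without zone I array 2 and 1 without zone I array 3). The cause was not tested. The shift of the PRP1/PRP3 ratio, -0.57, ran from -3.09 to 1.56 when single arrays were left out, reversed without zone I array 3 (1.56). With the replicate number as a block, 4026 and 4419 probe sets were called higher in zone II and zone I, against 4114 and 4509 without it. Of the calls on the 9 genes and the named relatives it changed that on XEG113. Deviations of same-numbered arrays correlated at 0.004, 0.036 and 0.037. Each array correlated best with its own number, but for zone II array 1 this was 0.004 against 0.003 with zone I array 2. Correlations this near 0 cannot settle whether the arrays were paired, and the labels name no pairing. Signals under 64 on at least 1 zone I array limit what can be said of the size for PRP1, PRP3, LRX1, RHS13 and RHS8.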
